A study of Homo sapiens with 8 samples.

Results

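Metallothioneins, the zinc exporter SLC30A1 and the metal-sensing transcription factor MTF1 were followed in RNA-seq libraries of 2 human cell lines with and without knockdown of eIF2A, a translation initiation factor. The group is a list of names, drawn up with earlier results of these data known, and holds 9 of the 19305 genes listed in the files: MT1E, MT1F, MT1G, MT1H, MT1M, MT1X, MT2A, SLC30A1 and MTF1. All 9 entered the tests, which covered 14565 genes. The 8 libraries form 4 groups of 2. HEK293T cells, a line derived from human embryonic kidney, received eIF2A siRNA or control siRNA, and all 4 of these libraries come from cells treated with sodium arsenite. H9 human embryonic stem cells carried an shRNA against eIF2A or a control shRNA, and their labels name no arsenite. No HEK293T library without arsenite was analysed here, so an effect of arsenite itself was not measured. Nothing in the labels states that replicates are separate cultures, so the p-values measure the spread between these particular samples and that spread could be technical.

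Metallothioneins are small cysteine-rich proteins that bind zinc, copper and toxic metals such as cadmium and arsenic. MTF1 is a zinc-finger factor that, when zinc in the cell is high, binds short DNA motifs called metal response elements and activates metallothionein genes and SLC30A1. SLC30A1 sits in the plasma membrane and moves zinc out of the cell. Arsenite is a known inducer of metallothioneins.

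The human metallothionein genes lie side by side on chromosome 16, and the RefSeq gene table places 16 of them there, 11 protein-coding and 5 pseudogenes. In order along the chromosome, the protein-coding ones are MT4, MT3, MT2A, MT1E, MT1M, MT1A, MT1B, MT1F, MT1G, MT1H and MT1X. Their likeness bears on every value that follows, so 4 coding sequences are shown, read from GENCODE 29 transcripts. MT2A and MT1X led in HEK293T and MT1X in H9, and MT1E and MT1H stand for the copies counted in H9 alone. Capitals mark the bases that differ from MT2A.
MT2A: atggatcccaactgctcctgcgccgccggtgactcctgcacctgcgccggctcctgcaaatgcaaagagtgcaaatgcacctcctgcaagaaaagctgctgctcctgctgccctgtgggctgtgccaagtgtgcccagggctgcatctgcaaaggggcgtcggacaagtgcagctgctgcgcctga
MT1X: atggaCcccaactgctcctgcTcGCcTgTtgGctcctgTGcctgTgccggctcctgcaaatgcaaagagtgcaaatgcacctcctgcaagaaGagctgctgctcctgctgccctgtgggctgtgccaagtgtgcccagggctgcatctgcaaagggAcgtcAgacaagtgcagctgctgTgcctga
MT1E: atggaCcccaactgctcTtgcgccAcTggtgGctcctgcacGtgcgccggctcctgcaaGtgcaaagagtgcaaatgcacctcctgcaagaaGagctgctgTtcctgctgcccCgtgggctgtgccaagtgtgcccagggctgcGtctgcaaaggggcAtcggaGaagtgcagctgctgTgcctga
MT1H: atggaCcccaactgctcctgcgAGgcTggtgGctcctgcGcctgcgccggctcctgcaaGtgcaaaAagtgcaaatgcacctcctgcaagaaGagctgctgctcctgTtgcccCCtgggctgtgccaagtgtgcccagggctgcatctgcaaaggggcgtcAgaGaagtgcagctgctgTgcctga

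Each of these 4 sequences holds 186 bases and encodes 61 residues, 20 of them cysteine (32.8%). From MT2A, MT1X and MT1E each differed at 14 bases and MT1H at 15. Among the 5 members with coding sequences of this length, MT1M included, pairs were identical at 89.8 to 93.0% of bases. Over whole transcripts the share of 50-base windows found also in a transcript of another gene was 51.0% for MT1X, 20.4% for MT1H and 20.2% for MT1G. It was 14.6% for MT1M, 10.2% for MT2A, 10% for MT1E and 0.3% for MT1F. The MT1F value is for a transcript with a coding sequence of 135 bases. Windows of MT1M were found in another transcript of MT1F, so the value may understate how much MT1F shares. Reads that aligned to more than 1 place were set aside in the deposited counts, so the levels of MT1X in particular may be understated and the split between copies is uncertain. SLC30A1 (0.0%) and MTF1 (0.6%) shared almost no window.

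The RefSeq promoter table (GRCh38.p14) held 5 of the 9 members: MT1H, MT1X, MT2A, SLC30A1 and MTF1. MT1E, MT1F, MT1G and MT1M had no entry. The 250 bases before the start of 4 of them are shown because metal response elements are the known binding sites of MTF1. Capitals mark the core motifs TGCACNC and TGCGCNC, where N is any base, searched on both strands (reverse forms GNGTGCA and GNGCGCA). No site can match both motifs on 1 strand.
MT1H, chr16:56669564-56669813, plus strand: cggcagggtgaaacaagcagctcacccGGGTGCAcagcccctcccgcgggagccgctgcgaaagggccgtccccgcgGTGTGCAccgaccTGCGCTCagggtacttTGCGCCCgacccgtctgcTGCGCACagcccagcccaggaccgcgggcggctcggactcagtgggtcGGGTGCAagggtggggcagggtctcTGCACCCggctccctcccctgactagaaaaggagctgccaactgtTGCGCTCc
MT2A, chr16:56608334-56608583, plus strand: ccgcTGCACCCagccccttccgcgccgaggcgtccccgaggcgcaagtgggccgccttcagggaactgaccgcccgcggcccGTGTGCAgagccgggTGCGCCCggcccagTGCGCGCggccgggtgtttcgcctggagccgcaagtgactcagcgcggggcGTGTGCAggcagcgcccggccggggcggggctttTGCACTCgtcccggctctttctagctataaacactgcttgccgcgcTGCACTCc
MT1X, chr16:56682220-56682469, plus strand: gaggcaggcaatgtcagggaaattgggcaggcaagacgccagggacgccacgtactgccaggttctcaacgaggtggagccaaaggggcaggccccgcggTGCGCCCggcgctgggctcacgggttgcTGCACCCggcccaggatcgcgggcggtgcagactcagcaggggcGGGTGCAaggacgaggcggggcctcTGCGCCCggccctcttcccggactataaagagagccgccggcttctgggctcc
SLC30A1, chr1:211579162-211579411, minus strand: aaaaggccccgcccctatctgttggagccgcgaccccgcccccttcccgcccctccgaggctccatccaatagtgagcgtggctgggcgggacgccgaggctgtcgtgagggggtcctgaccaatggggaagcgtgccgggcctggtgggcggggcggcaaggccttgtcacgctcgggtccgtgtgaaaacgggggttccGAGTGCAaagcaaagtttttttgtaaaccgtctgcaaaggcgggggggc

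MT1H held 8 cores, MT2A 7 and MT1X 4. Of 35116 promoters of the same length in the table, 0.0171% held at least 8, 0.0313% at least 7 and 0.37% at least 4. SLC30A1 held 1 core, and 24.8% of all promoters held at least 1, while MTF1 held 0 in this window. MT1H, with the most cores, was among the copies without a count in HEK293T. A match is a description of the letters, not of binding.

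The targeted transcript was checked first. EIF2A had 5.57 and 5.98 CPM in HEK293T with eIF2A siRNA, against 17.5 and 18.3 CPM with control siRNA. In H9 it had 5.02 and 4.66 CPM with eIF2A shRNA and 15.8 and 14.8 CPM with control shRNA. CPM is the count scaled to a common library size with TMM factors, which adjust for library composition. Gene counts per library ran between 21837052 and 32318668. The 6 pluripotency markers (POU5F1, NANOG, SOX2, LIN28A, DPPA4, CRIPTO) summed to 4.66 to 7.17 CPM across the HEK293T libraries and 3864 to 4175 CPM across the H9 libraries, and NANOG, DPPA4 and CRIPTO had no count in HEK293T. PAX2, NEFL, NEFM and INA, known to be expressed in HEK293T, summed to 144 to 167 CPM there and 21.3 to 29.9 CPM in H9. PAX2, NEFL and NEFM were higher in HEK293T controls than in H9 controls. INA went the other way, with a log2 difference of -2.33 ± 0.15. Among markers of other cells, COL1A1, COL3A1 and THY1 summed to 710 to 718 CPM in H9 with eIF2A shRNA and 877 to 882 CPM with control shRNA, most of it THY1, which embryonic stem cells also carry. PAX6 and SOX1 summed to 3.05 to 3.65 CPM with eIF2A shRNA and 4.66 to 5.48 CPM with control shRNA in H9, and markers of endoderm, mesoderm and trophoblast stayed under 0.4 CPM in H9. Across the HEK293T libraries PAX6 and SOX1 summed to 11.2 to 12.9 CPM, endoderm and mesoderm markers to 16.7 to 20.8 CPM and trophoblast markers to 7.51 to 8.22 CPM. Reads assigned to no gene made up 14.98 and 14.95% in HEK293T with eIF2A siRNA against 15.59 and 17.68% with control siRNA, and 20.84 and 20.63% in H9 with eIF2A shRNA against 18.84 and 18.39% with control shRNA. Their part in the results was not tested.

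Which metallothionein copies were transcribed differed between the lines. Arsenite-treated HEK293T used MT1X and MT2A, with a little MT1F, and the other 9 metallothionein genes in the files had at most 1 count in a library. H9 used 7 copies, adding MT1E, MT1G, MT1H and MT1M. The control libraries of the lines were compared to give the sizes, with arsenite-treated HEK293T set against H9. Cell line, arsenite and the kind of RNA interference change together in this comparison and cannot be told apart. In bulk libraries like these, fewer cells transcribing a gene and less RNA per cell cannot be told apart either.

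**Figure D1:**
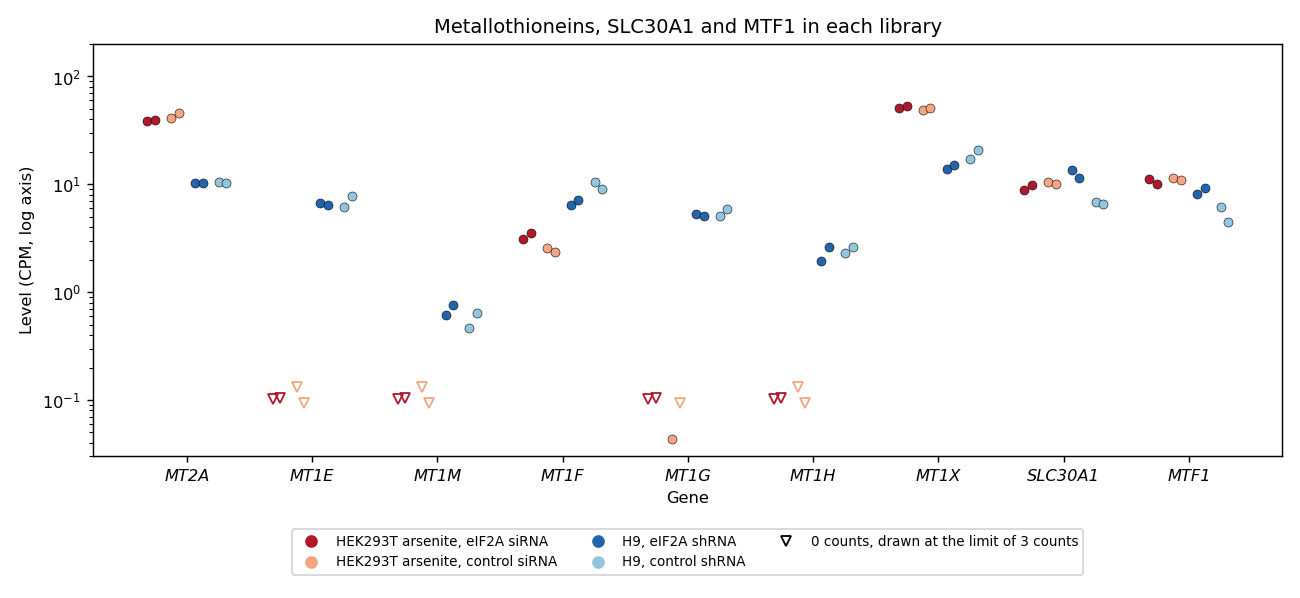
Level of each of the 9 genes in each library, in CPM on a log axis, with the metallothioneins in chromosome order and 1 point per library. Open triangles stand for 0 counts and are drawn at the CPM of 3 counts. MT1E, MT1M, MT1G and MT1H sit at or near the limit in all 4 HEK293T libraries and between 0.466 and 7.75 CPM in H9.

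MT1X was the most abundant copy everywhere. It had 48.9 and 50.5 CPM in HEK293T with control siRNA and 17.1 and 21.0 CPM in H9 with control shRNA. The HEK293T values lay above both H9 values, and the log2 difference was 1.39 ± 0.069 (SE; edgeR's quasi-likelihood F test, p adjusted by Benjamini-Hochberg = 1.5e-19). MT2A, which is expressed in most human tissues, had 41.2 and 45.8 CPM in HEK293T controls and 10.4 and 10.3 CPM in H9 controls. Its log2 difference of 2.08 ± 0.076 was the largest positive one among the 9 genes (edgeR adjusted p = 1.2e-23).

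MT1F went the other way. It had 2.57 and 2.36 CPM in HEK293T controls and 10.6 and 9.08 CPM in H9 controls, with no overlap, a log2 difference of -2.01 ± 0.14 (edgeR adjusted p = 6.3e-15). Thus of the 3 copies counted in both lines, 2 were higher and 1 lower in arsenite-treated HEK293T. How many reads each copy lost to multiple alignment was not tested.

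MT1E had 0 counts in all 4 HEK293T libraries. In H9 it had 6.76 and 6.44 CPM with eIF2A shRNA and 6.20 and 7.75 CPM with control shRNA. Taking 3 counts over the 2 libraries of a group as the limit that a count of 0 allows, MT1E was at least 127-fold lower in HEK293T controls than in H9 controls, and at least 128-fold lower between the 2 knockdown groups. These limits, here and for the genes below, cover counting error in HEK293T only and take the H9 mean as exact.

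MT1G had 0 counts in both HEK293T libraries with eIF2A siRNA, and 1 and 0 counts in the controls. In H9 it had 5.29 and 5.13 CPM with eIF2A shRNA and 5.08 and 5.87 CPM with control shRNA. The knockdown groups differed by at least 101-fold. Between the control groups, with 1 count against 228, the H9 level was 299.5 times that of HEK293T (exact 95% counting interval 53.2 to 11881).

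MT1H and MT1M were lower still in H9. MT1H had 0 counts in HEK293T, against 1.93 and 2.63 CPM in H9 with eIF2A shRNA and 2.33 and 2.62 CPM with control shRNA, which put it at least 45.2-fold lower in the HEK293T controls. MT1M had 0 counts in HEK293T, against 16 and 18 counts in H9 with eIF2A shRNA and 10 and 13 with control shRNA. The same limit put it 10.1-fold lower in the HEK293T controls. The counting error of the few H9 counts is left out of this limit, so the true bound is smaller. These 4 genes passed the filter on low counts only through H9, so that they differed between the lines follows from their being tested. All 9 members were called between the lines, 4 higher and 5 lower in HEK293T, where 83.5% of all genes tested were called (41.2% higher and 42.3% lower).

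The 2 genes of zinc handling were closer between the lines than the metallothioneins. SLC30A1 had 10.6 and 9.96 CPM in HEK293T controls and 6.85 and 6.52 CPM in H9 controls, a log2 difference of 0.62 ± 0.12 (edgeR adjusted p = 1.4e-05). MTF1 had 11.5 and 11 CPM in HEK293T controls and 6.20 and 4.49 CPM in H9 controls, a log2 difference of 1.06 ± 0.13 (edgeR adjusted p = 1.7e-09). The groups did not overlap for either gene.

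**Figure D2:**
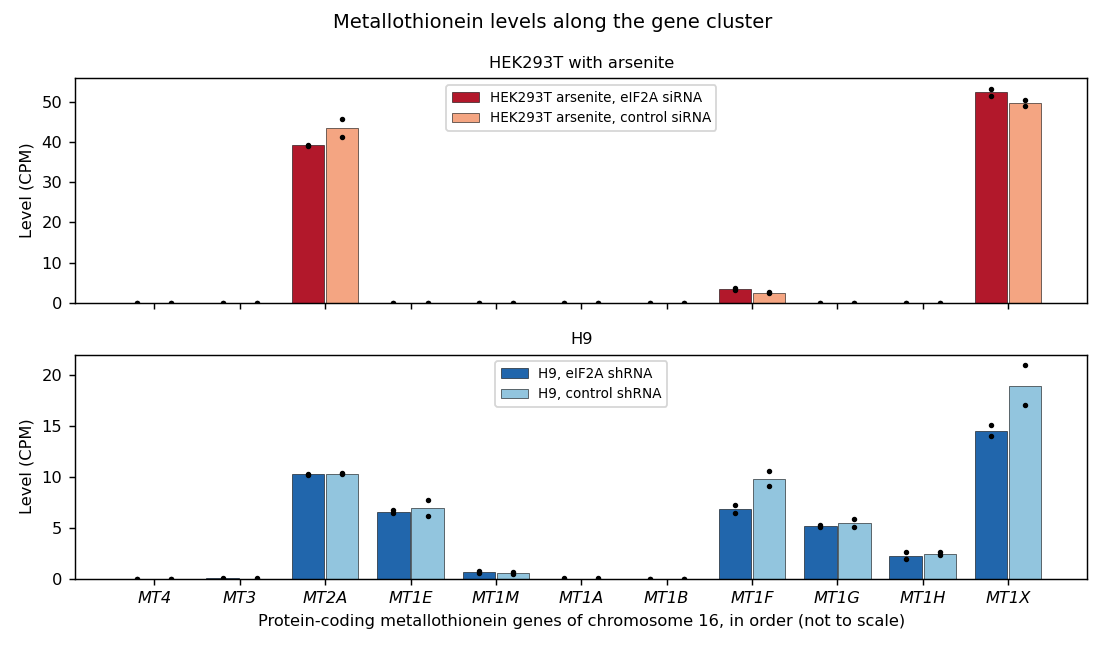
Mean level in CPM of the 11 protein-coding metallothionein genes of chromosome 16, in chromosome order, in HEK293T with arsenite (top) and H9 (bottom). Bars are means of 2 libraries and dots the libraries, and the scales of the panels differ. In HEK293T, MT2A and MT1X stand at the ends of the stretch that H9 uses, with MT1F low between them.

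Position in the cluster did not sort the copies used in HEK293T from those without counts. MT2A is followed by MT1E and MT1M, both at 0 in HEK293T, and MT1F is followed by MT1G and MT1H, at 1 count at most. MT1X comes after MT1H and was the highest. The 5 other metallothioneins in the files, MT1A, MT1B, MT3, MT4 and MT1HL1, had at most 2 counts in any library and were not tested. MT1A, MT1B, MT3 and MT4 had 0 counts in every HEK293T library.

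Summed over all copies, metallothionein transcripts made up 93.7 and 96.1 CPM in HEK293T with eIF2A siRNA and 92.8 and 98.6 CPM with control siRNA. The sums in H9 were 45.2 and 47.7 CPM with eIF2A shRNA and 52.2 and 57.2 CPM with control shRNA. The HEK293T groups overlapped, and the H9 knockdown libraries lay below both H9 controls. The H9 gap rests on the TMM scaling: as an unscaled share of gene counts the sum was 0.00491 and 0.00516% with eIF2A shRNA and 0.00486 and 0.00528% with control shRNA, which overlap. Every HEK293T sum was above every H9 sum.

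Each copy's part of these sums was also read within each library. MT1X held 55.0 and 55.4% of metallothionein counts in HEK293T with eIF2A siRNA (95% Wilson intervals 53.1 to 56.9 and 53.5 to 57.2), and 52.7 and 51.2% with control siRNA (50.6 to 54.8 and 49.4 to 52.9). MT2A held 41.7 and 40.9% with eIF2A siRNA (39.8 to 43.5 and 39.1 to 42.7) and 44.5 and 46.4% with control siRNA (42.4 to 46.6 and 44.7 to 48.2). The share of MT1X was higher and that of MT2A lower in both eIF2A siRNA libraries, though the intervals of the nearest libraries overlapped. The intervals cover counting error only.

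In H9, MT1X held 30.9 and 31.7% with eIF2A shRNA and 32.7 and 36.7% with control shRNA. MT2A held 22.6 and 21.6% with eIF2A shRNA and 19.9 and 17.9% with control shRNA. MT1F held 14.3 and 15.1% with eIF2A shRNA and 20.3 and 15.9% with control shRNA. The share of MT1E was 15.0 and 13.5% with eIF2A shRNA against 11.9 and 13.5% with control shRNA, and that of MT1G was 11.7 and 10.7% against 9.73 and 10.3%. MT2A took a larger, and MT1X and MT1F a smaller, part of the total in both knockdown libraries than in either control. The 95% Wilson intervals of the nearest libraries overlapped for all 3: 19.3 to 24.1 with eIF2A shRNA and 17.7 to 22.4 with control shRNA for MT2A, 29.1 to 34.5 and 30.0 to 35.5 for MT1X, and 13.1 to 17.3 and 13.9 to 18.1 for MT1F.

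**Figure D3:**
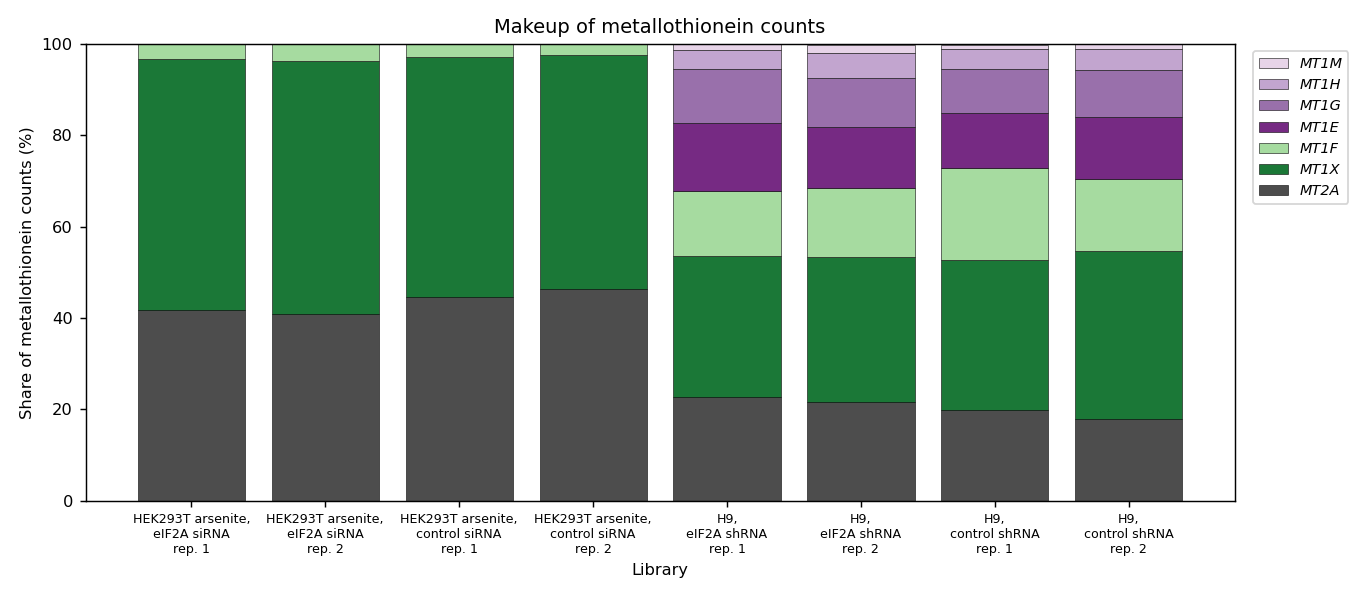
Share of each copy among all metallothionein counts of a library, in percent, with 1 bar per library. In HEK293T, MT2A, MT1X and MT1F fill the bars, and in H9 MT1E, MT1G, MT1H and MT1M add 27 to 32.3%. Copies with at most 2 counts are not drawn.

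Levels per kilobase of transcript allow for the length of different genes, but not for reads lost to multiple alignment. How that loss bears on the order of the genes was not tested. On this scale MT1X led in HEK293T controls with 121 and 125 CPM per kb, followed by MT2A with 103 and 114. MT1F had 6.21 and 5.69, SLC30A1 1.94 and 1.82 and MTF1 1.44 and 1.39 CPM per kb in the same libraries, and no neighbours in this order overlapped. With eIF2A siRNA the order was the same, with MT1X at 128 and 132 and MT2A at 97.3 and 98.1 CPM per kb.

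In H9 controls MT1X again led, with 42.2 and 51.9 CPM per kb. MT2A (25.9 and 25.6) and MT1F (25.6 and 21.9 CPM per kb) came next and could not be separated beyond their spread. MT1E had 15.6 and 19.5, MT1G 12.5 and 14.5 and MT1H 5.87 and 6.59 CPM per kb. MT1M (1.17 and 1.61) overlapped SLC30A1 (1.25 and 1.19 CPM per kb), and MTF1 was last with 0.781 and 0.566. With eIF2A shRNA, MT1E (17 and 16.2) and MT1F (15.6 and 17.4 CPM per kb) overlapped, and SLC30A1 (2.5 and 2.1) lay above MT1M (1.55 and 1.92 CPM per kb).

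To see what eIF2A depletion does to these genes under arsenite, eIF2A siRNA was compared with control siRNA in HEK293T. Of the 5 members measurable in HEK293T, MT2A fell slightly and the other 4 were not called, while 28.7% of all genes tested were called (14.1% higher, 14.7% lower). The median log2 fold change was -0.07 for these 5 members and -0.00 for all genes.

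MT2A had 39.0 and 39.3 CPM with eIF2A siRNA, against 41.2 and 45.8 CPM with control siRNA. Both knockdown libraries lay below both controls, and the log2 fold change was -0.16 ± 0.056 (edgeR adjusted p = 0.030). The call was lost in 10 of 20 alternative analyses, among them DESeq2, the fit to the 4 HEK293T libraries alone and the fits without HEK293T control replicate 2, HEK293T eIF2A siRNA replicate 1, HEK293T eIF2A siRNA replicate 2 or H9 eIF2A shRNA replicate 2 (adjusted p of MT2A between 0.0021 and 0.47 over all alternatives). Without HEK293T control replicate 2 the log2 fold change was -0.07.

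MT1F had 3.09 and 3.56 CPM with eIF2A siRNA and 2.57 and 2.36 CPM with control siRNA. The groups did not overlap, and the log2 fold change of 0.44 ± 0.17 lay just past the threshold of 0.05 (edgeR adjusted p = 0.051). It was called in 4 of 20 alternatives: with DESeq2's size factors, with no filter, with a filter of 5 CPM and without H9 control replicate 1. MT1X had 51.5 and 53.2 CPM with eIF2A siRNA and 48.9 and 50.5 CPM with control siRNA, a log2 fold change of 0.07 ± 0.055 (edgeR adjusted p = 0.36).

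SLC30A1 had 8.84 and 9.88 CPM with eIF2A siRNA and 10.6 and 9.96 CPM with control siRNA, a log2 fold change of -0.13 ± 0.10 (edgeR adjusted p = 0.38). MTF1 had 11.2 and 10.1 CPM with eIF2A siRNA and 11.5 and 11 CPM with control siRNA, a log2 fold change of -0.07 ± 0.10 (edgeR adjusted p = 0.66). MT1E, MT1G, MT1H and MT1M had at most 1 count in these libraries and no fold change is given.

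The same question was asked of the stem cells, with H9 carrying eIF2A shRNA set against H9 carrying control shRNA. As measured, SLC30A1 and MTF1 rose, MT1F and MT1X fell, and MT1E, MT1G, MT1H, MT1M and MT2A were not called. These 4 calls among 9 members compare with 71.3% of all genes tested (37.0% higher and 34.3% lower). The median log2 fold change was -0.07 for the members and 0.02 for all genes.

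SLC30A1 had 13.7 and 11.5 CPM with eIF2A shRNA and 6.85 and 6.52 CPM with control shRNA. Both knockdown libraries were above both controls, and the log2 fold change was 0.92 ± 0.11 (edgeR adjusted p = 9.6e-09). MTF1 had 8.19 and 9.29 CPM with eIF2A shRNA and 6.20 and 4.49 CPM with control shRNA, again without overlap. Its log2 fold change was 0.70 ± 0.13 (edgeR adjusted p = 2.0e-05). As measured, no metallothionein was called higher, which changes in the fit described below.

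MT1X had 14.0 and 15.1 CPM with eIF2A shRNA and 17.1 and 21.0 CPM with control shRNA, a log2 fold change of -0.39 ± 0.087 (edgeR adjusted p = 0.00017). MT1F had 6.45 and 7.21 CPM with eIF2A shRNA and 10.6 and 9.08 CPM with control shRNA, a log2 fold change of -0.53 ± 0.12 (edgeR adjusted p = 0.00019). In both genes the knockdown libraries lay below the controls in TMM-scaled CPM. As an unscaled share of gene counts the groups still did not overlap for MT1F, but they overlapped for MT1X. MT2A had 10.2 and 10.3 CPM with eIF2A shRNA and 10.4 and 10.3 CPM with control shRNA, a log2 fold change of -0.01 ± 0.10 (edgeR adjusted p = 0.93).

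The copies counted in H9 alone gave log2 fold changes of -0.07 ± 0.14 for MT1E, -0.07 ± 0.15 for MT1G, -0.12 ± 0.23 for MT1H and 0.32 ± 0.43 for MT1M (edgeR adjusted p between 0.52 and 0.70). The H9 groups overlapped in each of these 4 genes. MT1M, with 16 and 18 counts with eIF2A shRNA and 10 and 13 with control shRNA, showed no difference detectable at this depth.

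These H9 changes moved together with the base composition and length of the transcripts. Across 14489 genes, which are not independent replicates, Spearman's rho between the H9 log2 fold change and GC content was -0.68 and that with length 0.45, while in HEK293T both were -0.10. SLC30A1 (38% GC, 5474 bases) and MTF1 (46.6% GC, 7937 bases) are long and lower in GC, and metallothionein transcripts are short, at 397 to 414 bases, with 49.3 to 55.6% GC.

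With the trend over GC and length removed from the fit, the calls in H9 changed. SLC30A1 had a log2 fold change of -0.09 (edgeR adjusted p = 0.56) and MTF1 of 0.02 (edgeR adjusted p = 0.93). MT1F (0.00) and MT1X (0.08) were no longer called either. In their place MT2A rose by 0.69 (edgeR adjusted p = 1.9e-07), MT1E by 0.63 (edgeR adjusted p = 0.00020) and MT1G by 0.54 (edgeR adjusted p = 0.0031), 3 of 9 members, where 49.5% of all genes were called in that fit (22.2% higher and 27.3% lower). MT1H, at 0.45, and MT1M, at 1 on the log2 scale, were not called (edgeR adjusted p = 0.11 and 0.051).

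What part of the H9 changes the trend accounts for was not tested. The reference transcript models of MT2A (786 bases, 63.0% GC), MT1E and MT1M run past the gene ends that RefSeq gives. With the models cut at those ends, in an alternative added after the data had been seen, MT1E rose by 0.35 (edgeR adjusted p = 0.032), MT2A by 0.71 and MT1G by 0.53.

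**Figure D4:**
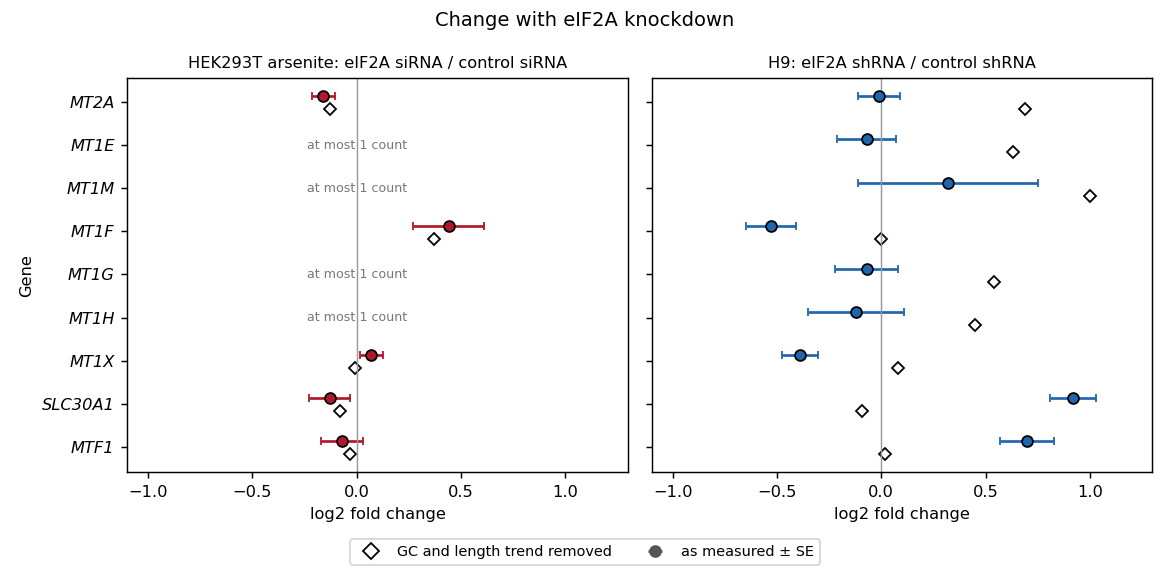
Log2 fold change of each gene with eIF2A knockdown in arsenite-treated HEK293T (left) and H9 (right). Filled circles are the changes as measured with their SE, and open diamonds the values with the trend over GC content and length removed. In H9 the diamonds of SLC30A1, MTF1, MT1F and MT1X lie between -0.09 and 0.08, and those of MT2A, MT1E and MT1G between 0.54 and 0.69.

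The knockdown changes of the lines were then compared directly, as the change in HEK293T minus the change in H9. As measured, 4 of the 5 members counted in both lines differed, 2 higher and 2 lower, against 58.1% of all genes (27.0% higher, 31.1% lower). Over all genes 3935 were higher and 4532 lower, and with DESeq2's size factors 5051 and 3730. SLC30A1 differed by -1.05 ± 0.15 on the log2 scale (edgeR adjusted p = 4.1e-07) and MTF1 by -0.77 ± 0.17 (edgeR adjusted p = 0.00017). MT1F differed by 0.97 ± 0.21 (edgeR adjusted p = 0.00014) and MT1X by 0.46 ± 0.10 (edgeR adjusted p = 0.00023). MT2A differed by -0.15 ± 0.11 (edgeR adjusted p = 0.28).

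With the GC and length trend removed, none of those 4 was called, and MT2A alone was, at -0.82 (edgeR adjusted p = 1.4e-07). In that fit MT2A had log2 fold changes of -0.13 in HEK293T (edgeR adjusted p = 0.078) and 0.69 in H9. There, 42.4% of all genes tested were called (23.8% higher, 18.6% lower). The alternative with transcript models cut at the RefSeq gene ends, added after the data had been seen, kept the HEK293T call of MT2A. Its log2 fold change there was -0.20 (edgeR adjusted p = 0.0035), and the difference between the lines was -0.91 (edgeR adjusted p = 9.3e-09).

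Other genes of metal handling were taken from lists. Of 8 zinc exporters of the SLC30A family tested beside SLC30A1, 1 fell and 0 rose in HEK293T with eIF2A siRNA. SLC30A3, which loads zinc into vesicles, fell by 0.47 ± 0.16 on the log2 scale (edgeR adjusted p = 0.027). This call was lost with the trend removed (-0.40, edgeR adjusted p = 0.061), and without control siRNA replicate 2 (-0.38), eIF2A siRNA replicate 1 (-0.52) or eIF2A siRNA replicate 2 (-0.42). In H9, 5 rose and 0 fell with eIF2A shRNA, where 28.7% of all genes in HEK293T and 71.3% in H9 were called in either direction, and the median log2 fold change of the list was 0.81, against 0.02 for all genes. SLC30A9, a mitochondrial zinc exporter, had 27.6 and 26.2 CPM with eIF2A shRNA and 12.8 and 12.8 CPM with control shRNA, a log2 fold change of 1.07 ± 0.080 (edgeR adjusted p = 4.5e-14). The secretory-pathway exporters SLC30A5, SLC30A6 and SLC30A7 rose by 0.77 ± 0.088, 0.86 ± 0.083 and 0.77 ± 0.11. The remaining one, SLC30A4, had 2 counts in each knockdown library and 0 in both controls. Its call (edgeR adjusted p = 0.049) was lost with the trend removed (edgeR adjusted p = 0.18) and whenever any single library was left out. With the trend removed SLC30A9 was at 0.03, SLC30A6 at -0.11, SLC30A5 at -0.13 and SLC30A7 at -0.32, so none of these 4 was called higher in that fit and SLC30A7 was called lower (edgeR adjusted p = 0.016).

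Among 11 zinc importers of the SLC39A family tested, 1 rose and 4 fell in HEK293T, and 5 rose and 3 fell in H9, against 28.7% of all genes called in HEK293T and 71.3% in H9. SLC39A10, a plasma membrane importer, moved in opposite directions. It had 6.76 and 6.70 CPM in HEK293T with eIF2A siRNA, against 9.89 and 9.27 CPM with control siRNA, a log2 fold change of -0.50 ± 0.10 (edgeR adjusted p = 0.00018). In H9 it had 38.2 and 40.2 CPM with eIF2A shRNA, against 14.7 and 14.9 CPM with control shRNA, a log2 fold change of 1.41 ± 0.073 (edgeR adjusted p = 3.5e-18). The difference between the lines was -1.91 ± 0.12 (edgeR adjusted p = 7.7e-15). With the trend removed the changes of SLC39A10 were -0.44 (edgeR adjusted p = 0.00080) in HEK293T and 0.41 (edgeR adjusted p = 1.7e-05) in H9, so both calls and both directions held while the H9 rise shrank.

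SLC39A6, a close relative of SLC39A10, had 32.9 and 29.6 CPM in H9 with eIF2A shRNA and 11.4 and 10.3 CPM with control shRNA, a log2 fold change of 1.53 ± 0.085 (edgeR adjusted p = 2.5e-17). With the trend removed it was 0.76 (edgeR adjusted p = 1.4e-09). SLC39A14, which carries zinc and iron, rose by 0.31 ± 0.038 in HEK293T and by 0.42 ± 0.035 in H9, but was at -0.01 in H9 with the trend removed. SLC39A4, the intestinal zinc importer, fell in HEK293T by 0.39 ± 0.061, SLC39A13 by 0.22 ± 0.058 and SLC39A9 by 0.15 ± 0.051. SLC39A13 lost its call without eIF2A siRNA replicate 1 (-0.20), and SLC39A9 without control siRNA replicate 1 (-0.13), eIF2A siRNA replicate 1 (-0.14) or eIF2A siRNA replicate 2 (-0.15). SLC39A1 and SLC39A3 fell in H9 by 0.44 ± 0.031 and 0.46 ± 0.054, and with the trend removed by 0.12 and 0.18. SLC39A7, which releases zinc from the endoplasmic reticulum, had 0 or 1 count in every library and was not tested. Reads that aligned to more than 1 place were set aside, and how many this gene lost was not tested.

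Beyond metallothioneins and SLC30A1, 6 genes described as MTF1 targets in mouse were followed. None rose and 2 fell in HEK293T: SLC39A10, given above, and the stress-responsive gene NDRG1, which fell by 0.23 ± 0.036 (edgeR adjusted p = 4.7e-06). In H9, 2 rose and 2 fell, which compares with 28.7% of all genes called in HEK293T and 71.3% in H9. The glutathione synthesis gene GCLC had 23.5 and 24.3 CPM with eIF2A shRNA and 12.3 and 10.3 CPM with control shRNA, a log2 fold change of 1.08 ± 0.087 (edgeR adjusted p = 3.6e-13). With the trend removed it was 0.45. The selenoprotein gene SELENOW fell by 0.51 ± 0.032 and the placental growth factor gene PGF by 0.60 ± 0.15, and with the trend removed they stood at 0.13, called higher, and -0.14, not called. PGF also lost its call without H9 eIF2A shRNA replicate 1 (-0.36). These genes did not move as 1 group in either line. The list was not split by whether MTF1 activates or represses a gene, so a shared direction was not a test of MTF1 activity.

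Metallothioneins also bind copper, and 13 copper handling genes were followed. In HEK293T 4 rose and 2 fell, all by at most 0.36 on the log2 scale, and in H9 4 rose and 5 fell, against 28.7% of all genes called in HEK293T and 71.3% in H9. COX11 and COX17, which supply copper to cytochrome oxidase, rose by 0.36 ± 0.052 and 0.19 ± 0.056, the importer SLC31A1 by 0.17 ± 0.043 and MEMO1 by 0.28 ± 0.067, and CCS, the chaperone of superoxide dismutase, fell by 0.29 ± 0.085. In H9 the exporter ATP7A rose by 2.03 ± 0.34 (edgeR adjusted p = 2.0e-06), the chaperone ATOX1 fell by 0.77 ± 0.057, COX17 fell by 0.67 ± 0.069, COMMD1 fell by 0.40 ± 0.069 and SLC31A1 rose by 0.34 ± 0.046. Removing the trend put ATOX1 at -0.03, no longer called, ATP7A at 0.91, COMMD1 at -0.23, COX17 at -0.89 and SLC31A1 at -0.40, called lower. In HEK293T, COX17 lost its call in that fit (0.08) and without control siRNA replicate 1 (0.13) or eIF2A siRNA replicate 1 (0.11). CCS lost its call without control siRNA replicate 2 (-0.11) or eIF2A siRNA replicate 2 (-0.19).

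For comparison, genes that respond to arsenite through other factors were read in the same libraries. HMOX1, which breaks down heme, had 196 and 196 CPM in HEK293T with eIF2A siRNA and 127 and 120 CPM with control siRNA, a log2 fold change of 0.67 ± 0.037 (edgeR adjusted p = 2.6e-15). In H9 it had 102 and 99.5 CPM with eIF2A shRNA and 147 and 146 CPM with control shRNA, a log2 fold change of -0.54 ± 0.039 (edgeR adjusted p = 2.6e-14). In HEK293T, where HMOX1 rose, the metallothionein sum did not leave the range of its controls. Of the 13 genes in this list, 5 rose and 3 fell in HEK293T, and 5 rose and 4 fell in H9, against 28.7% of all genes called in HEK293T and 71.3% in H9. The heat shock genes DNAJB1 and BAG3 fell in HEK293T by 0.34 ± 0.031 and 0.35 ± 0.038, and SQSTM1 and SRXN1 rose by 0.26 ± 0.032 and 0.24 ± 0.046. In H9, HSPH1 rose by 1.32 ± 0.068, SLC7A11 by 1.27 ± 0.12 and TXNRD1 by 0.74 ± 0.053, and NQO1 fell by 0.48 ± 0.043. After removal of the trend, SLC7A11 (0.16) and TXNRD1 (0.11) were not called in H9, HSPH1 was at 0.35, NQO1 at -0.88 and HMOX1 at -0.11 (edgeR adjusted p = 0.018).

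Of 6 genes of arsenic transport and conjugation tested, 2 rose and 1 fell in HEK293T, and 0 rose and 4 fell in H9, against 28.7% of all genes called in HEK293T and 71.3% in H9. The glutathione transferase GSTP1 fell by 0.16 ± 0.030 in HEK293T and by 0.61 ± 0.030 in H9. GSTO1, which reduces methylated arsenic, rose by 0.14 ± 0.042 in HEK293T and fell by 0.66 ± 0.050 in H9. The efflux pump gene ABCC2 rose by 1.56 ± 0.53 in HEK293T (edgeR adjusted p = 0.023). AQP3, an aquaporin that also passes arsenite, fell by 0.63 ± 0.16 in H9. ABCC1 fell there by 0.09 ± 0.037 (edgeR adjusted p = 0.026). In the fit without the trend, GSTP1 (0.05) and AQP3 (-0.24) lost their calls in H9 and GSTO1 (0.05) its call in HEK293T. ABCC1 kept its call in H9 in that fit (-0.19). It lost the call without H9 control shRNA replicate 1 (-0.08), eIF2A shRNA replicate 1 (-0.09) or eIF2A shRNA replicate 2 (-0.09). AQP3 also lost its call without H9 eIF2A shRNA replicate 1 (-0.36). GSTO1 in HEK293T lost its call without control siRNA replicate 2 (0.09) or eIF2A siRNA replicate 2 (0.13). ABCC2 lost its call without control siRNA replicate 1 (1.52), control siRNA replicate 2 (1.63) or eIF2A siRNA replicate 2 (1.14).

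Across the 8 libraries the 9 genes fell into patterns that mostly followed the split between arsenite-treated HEK293T and H9. Correlations therefore describe that split more than the knockdown, and no p is given. Cell line, arsenite and the kind of RNA interference change together in it. Over the 8 libraries, on the log2 CPM scale, MT1E, MT1G, MT1H and MT1M correlated with each other at a Pearson r of at least 0.99. Their r with MT2A was -0.99 or below. These 4 genes had at most 1 count in a HEK293T library, so their values there sat at the floor. Such r values follow largely from that floor and tell little about whether the copies move together. MT1X and MT2A had r = 0.98. SLC30A1 followed neither set, with r = -0.03 to MT1X and 0.15 to MT2A, and had r = 0.65 with MTF1. Among the 12947 genes averaging 1 CPM or more, the 4 most like MT2A were HOXA4, HOXB4, CSAG1 and PGM1, but 22.0% of those genes had r above 0.9 with it. For MT1X they were CNRIP1, PARP3, NEK6 and SLC25A20, where 21.7% of genes had r above 0.9. Those most like SLC30A1 were NUF2 (r = 0.981), KLHL9, ZNF7 and RNF150, where 2.89% of genes had r above 0.9. Those most like MTF1 were MAST4 (r = 0.992), ATG4C, RSBN1 and SASS6, where 5.17% of genes had r above 0.9.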

How the data were processed

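Polyadenylated RNA was sequenced in 8 libraries, 2 in each of 4 groups. TRIzol extraction and a TruSeq stranded kit were used, per the labels' protocols. The submitters' processing notes name cutadapt, STAR 2.5.2b and hg19. What the authors deposited is a raw read count for each RefSeq accession. How reads were counted (program, strand setting, annotation) is not given in the sources used here; overlapping genes may share counts. Symbols were found for 18888 accessions in a RefSeq table and for 225 in GENCODE, and 192 stayed unnamed. Special counters were left out of library sizes and tests: no feature (14.95 to 20.84% of reads), not uniquely aligned (4.106 to 4.542%) and ambiguous.

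The tests used edgeR 4.0.16 under R 4.3.3 (filterByExpr, TMM, robust quasi-likelihood F test, two-sided, 1 fit of 4 group means to 8 libraries with 4 residual degrees of freedom). P-values were adjusted by Benjamini-Hochberg over 14565 genes, and adjusted p under 0.05 was called. Scripts were tested on simulated data. Replicates differed by more than sampling noise (chi-square per degree of freedom 1.35 to 4.91). Set numbers did not pair the libraries.

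The members and lists were chosen with earlier results of these data known. Named genes are the 9 members, up to 5 called genes with the smallest p per list and knockdown comparison, and the 4 genes most correlated with each of MT2A, MT1X, SLC30A1 and MTF1. SLC39A7 was added after its counts were seen. Alternatives were other scalings and filters, DESeq2 1.42.0, limma-voom 3.58.1, the 4 libraries of a comparison alone, a replicate block, each library left out, adjusted p under 0.01, all metallothionein copies summed, and removal of a trend over GC content and length. Sequences are from RefSeq and GENCODE 29.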

Additional observations from a re-analysis of the deposited data

Results flagged for a closer look

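For 4 members the change with eIF2A knockdown differed between the lines by the test of the difference itself (HEK293T minus H9, log2 scale, edgeR). The values were 0.97 for MT1F, 0.46 for MT1X, -1.05 for SLC30A1 and -0.77 for MTF1. The H9 change follows GC content and transcript length across all genes, and with that trend removed the differences were 0.36 for MT1F, -0.09 for MT1X, 0.01 for SLC30A1 and -0.05 for MTF1, none of them called. In that fit MT2A differed, by -0.82.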

How the results depend on the processing

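The calls between the lines of MT1F, MT1X, MT2A, SLC30A1 and MTF1 held in every alternative run. MT1H and MT1M did not pass the filter of 5 CPM and were not tested with it. For MT1E, MT1G, MT1H and MT1M the calls between the lines were not followed gene by gene. In HEK293T, the 1 member called became 2 with DESeq2's size factors, with no filter and with a filter of 5 CPM, and 0 with DESeq2's test, with the 4 libraries alone, with the replicate block, at adjusted p under 0.01, with the GC and length trend removed, and with the block and the trend together. Leaving out single libraries gave 0 to 2 members called in HEK293T, 4 to 4 in H9, 4 to 4 for the difference and 9 to 9 between the lines. Of those between the lines, MT1E, MT1G, MT1H and MT1M passed the filter only through H9, so their calls followed from their being tested. Over all genes these fits called 2903 to 4079, 9522 to 10597, 7818 to 8494 and 11607 to 12234. DESeq2 called 2751 genes in HEK293T, against 4182, and gave an adjusted p to 10894 of 14565. Set numbers are not described as pairs, and same-numbered libraries did not deviate together (r = -0.02 in HEK293T and 0.00 in H9). The replicate block ended the call of MT2A and changed no other member's call. For the difference between the lines, 1 member was called in place of 4 in each fit with the trend removed. Of all genes called in H9, 5388 rose and 4991 fell, against 4553 and 6124 with DESeq2's size factors, which moved the median of all genes to -0.13. Between the lines, upper-quartile scaling gave 6908 higher and 5418 lower, against 6004 and 6159, and moved that median to 0.16. For the difference, 3935 were higher and 4532 lower, against 5051 and 3730 with DESeq2's size factors. Summed to 1 feature, metallothionein copies changed by -0.01 in HEK293T and -0.24 in H9, against medians over copies of 0.08 and -0.08.

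Signs turned as follows. With the trend removed, H9 changes were 0.63 for MT1E, 0.54 for MT1G, 0.45 for MT1H, 0.08 for MT1X (0.09 with the block), 0.69 for MT2A, -0.09 for SLC30A1, -0.11 for SLC30A6, -0.13 for SLC30A5, -0.32 for SLC30A7, -0.01 for SLC39A14, -0.40 for SLC31A1, 0.13 for SELENOW and 0.05 for GSTP1. MT1X was at -0.01 in HEK293T, and the differences between lines were -0.09 for MT1X and 0.01 for SLC30A1. With transcript ends from RefSeq, an alternative added after seeing the data, MT1E was at 0.35, MT1F at 0.01, MT1G at 0.53, MT1H at 0.44 and MT2A at 0.71 in H9, and MT1X at -0.02 in HEK293T and -0.01 for the difference. MT2A in H9 was at 0.06 with upper-quartile scaling and 0.04 with a filter of 5 CPM, and its difference was 0.01 with DESeq2's size factors or test. Leaving out single H9 libraries, MT1E ran between -0.23 and 0.09, MT1G between -0.17 and 0.04 (both highest without H9 control shRNA replicate 2) and MT1H between -0.35 and 0.09 (highest without H9 eIF2A shRNA replicate 1). Outside the trend fits, 382 of 401 values of members kept their direction and side of the threshold. Where no cause is shown by the alternative's construction, the cause was not tested. With 2 libraries a group and few counts for MT1M and MT1H, small changes of these genes were not detectable, and a count of 0 in HEK293T is a limit at this depth.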
